A study of Mus musculus with 6 samples.

Results

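The genes described here, apart from Psmc3ip and Psme3ip1, encode subunits, assembly factors and activators of the proteasome. They were taken as every gene whose symbol begins with Psm, a letter from a to e and a number, among probe sets that carry exactly 1 symbol. This gave 44 of the 18193 genes so named on the arrays, and each was read by its probe set with the highest mean signal over all 6 libraries. RNA came from hind limb muscle of mice aged 4 weeks, with 1 Affymetrix array a mouse: 3 wild type animals, and 3 that were deficient in laminin alpha 2 chain, part of the basement membrane around muscle fibres. The labels call the replicates biological and name no allele, strain or sex, nor how the deficiency was made.

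The proteasome is the protease complex that breaks down proteins tagged with ubiquitin. Its core, the 20S particle, is a barrel with alpha rings at the ends and beta rings in the middle, and the 19S regulatory particle, a base with a ring of ATPases and a lid, binds the tagged protein, removes the ubiquitin and feeds the chain into the core. Immune cells, and other cells exposed to interferon gamma, replace the active beta subunits by immune ones, and separate activators can cap the barrel. In skeletal muscle this system takes part in the loss of contractile protein during atrophy.

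Of the 44 genes, 42 passed the filter on low signal and were tested. The other 2 were dim in every library. Psma8, an alpha subunit of the testis, read 12.9, 14.1 and 1.9 in wild type and 8.3, 0.8 and 2.2 in deficient muscle. Psmb11, a beta subunit of the thymus, read 8.2, 2.9 and 8.2 in wild type and 1.2, 4.5 and 0.7 in deficient muscle. Psme2, an activator gene, was not analysed here. The rule also took Psmc3ip and Psme3ip1, which are named for binding a subunit or an activator and are not parts of the particle. Both are counted among the 42 genes tested. Psmc3ip stood at 53.3 ± 12 and 42 ± 20.2 and Psme3ip1 at 304 ± 31.7 and 250 ± 39.2 (mean ± SD, n = 3 a group, wild type first, as in all such pairs), and neither was called.

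Values are linear signals in array units, with array medians from 20 to 26.1. Lama2, the gene of the missing chain, read 326.2 to 428.7 in the wild type and 31.1 to 140.4 in the deficient libraries. Markers of muscle fibres were bright in all libraries, with a sum over 9 genes of 97877 to 105232 in wild type and 74179 to 100877 in deficient muscle. Of 8 genes of regenerating muscle, 4 (Myh3, Myh8, Myl4 and Mymx) were called higher in deficient muscle, that is, at an adjusted p under 0.05 in limma's test. Hair follicle genes stood out in wild type replicates 1 and 2, with a sum over 7 genes of 1916 and 806 against 34.4 to 111 elsewhere, and 2 of the 7, Tchh and Krt73, were called lower in deficient muscle. Replicate 3 of both groups lacked the Y-linked transcript Eif2s3y, at 10.7 and 9.1 against at least 414.6 elsewhere. For the actin control, signal at the 5 prime end divided by that at the 3 prime end was 1.04 to 1.15 in wild type and 0.51 to 0.819 in deficient muscle. For the Gapdh control this ratio was 0.961 to 1.19 in wild type and 0.886 to 1.15 in deficient muscle, with overlap. The part of these ratios in the values that follow was not tested. In whole muscle, fewer cells of a type and less RNA per cell cannot be told apart.

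None of the 42 proteasome genes was called higher or lower in deficient muscle at an adjusted p under 0.05 (limma, Benjamini-Hochberg over 13104 genes), where 2.69% of all genes tested were called, 1.25% higher and 1.44% lower. The lowest adjusted p among them was 0.123, for the lid gene Psmd13. At an unadjusted p under 0.05 there were 4 of 42, 1 higher and 3 lower, or 9.52%, against 18.9% of all genes (9.43% higher and 9.49% lower). Log2 fold changes were taken on log2(signal + 16) as the deficient mean minus the wild type mean, a scale that understates the changes of dim genes. They ran from -0.48 to 0.54 with a median of -0.06, beside a median of 0.02 over all genes tested. Their median size without sign was 0.15, and 0.27 over all genes. Read by the brightest probe set, none reached a 1.5-fold difference, which 16.4% of all genes did. A less bright probe set did so in Psme4, at -0.79, and in Psmd6, at -0.88.

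A p above the threshold does not show that levels were alike, so the 95% interval of each difference was set against fixed fold changes. In 41 of the 42 genes it lay inside a 2-fold change either way, as for 69.0% of all genes tested. This holds for the brightest probe set of each gene and not for every other probe set. In 24, or 57.1%, it lay inside a 1.5-fold change, as for 15.7% of all genes. The exception to the 2-fold limit was Psmb8, an immune subunit gene, with an interval from -0.55 to 1.01. The proteasome genes were bright, with a median signal of 1206 against 109 over all genes, and their median SE was 0.177 against 0.239. The part of brightness in these shares was not tested.

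**Figure D1:**
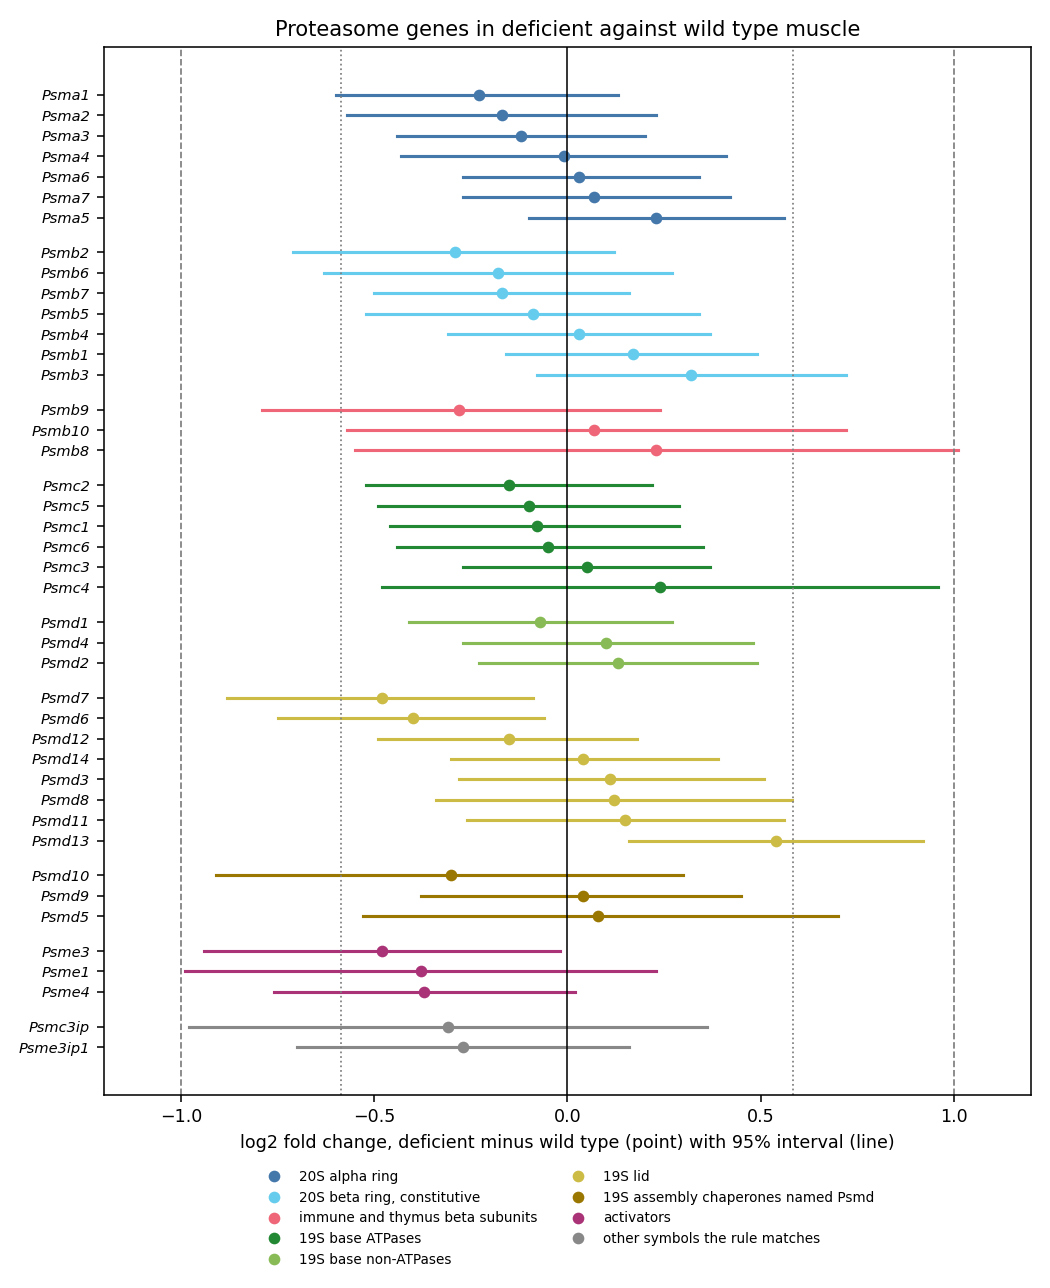
Log2 fold change of each of the 42 tested proteasome genes (point) with its 95% interval (line), grouped by class. All 42 points lie inside a 1.5-fold change, and the intervals of Psmd13, Psmd7, Psmd6 and Psme3 do not reach 0.

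**Figure D2:**
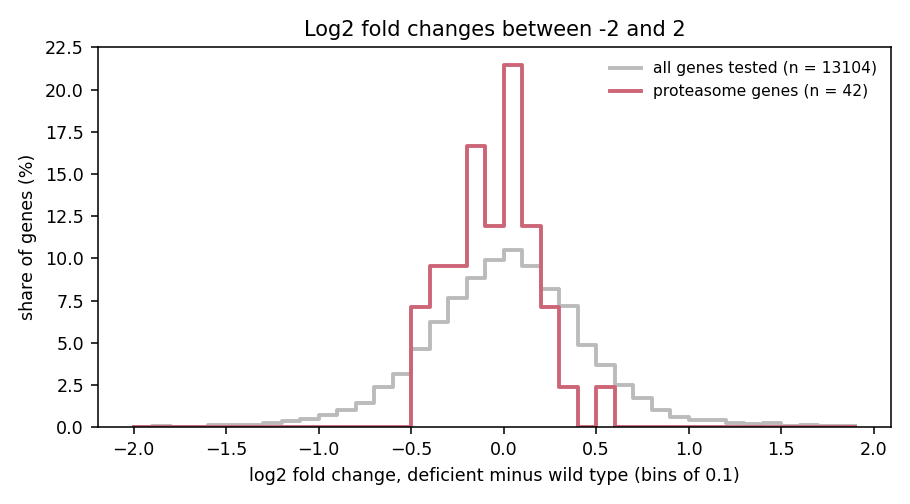
Share of genes (%) by log2 fold change in bins of 0.1, for all 13104 genes tested and for the 42 proteasome genes. The proteasome genes lie between -0.48 and 0.54, inside the spread of all genes.

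The alpha ring forms the gate of the core particle. Of its 7 tested genes 0 were called, and their log2 fold changes ran from -0.23 to 0.23 with a median of -0.01. Psma5 read 1201.6, 1362.4 and 1276.2 in wild type and 1435.2, 1595.5 and 1480.1 in deficient muscle, a log2 fold change of 0.23 (SE 0.147, limma adjusted p = 0.434). All 3 deficient libraries were above all 3 wild type libraries, as for 12.3% of all genes tested. A second bright probe set of Psma5, at 799 ± 41.6 and 831 ± 60.5, overlapped between the groups. Psma1 stood at 1427 ± 113 and 1215 ± 155 and Psma2 at 1528 ± 118 and 1374 ± 269, and in both the groups overlapped.

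The 7 constitutive beta subunit genes had a median log2 fold change of -0.09, from -0.29 to 0.32, and 0 were called. Psmb5, of the chymotrypsin-like site, read 1820.1, 1426.9 and 1249.6 in wild type and 1572.5, 1474.9 and 1157.4 in deficient muscle, with an interval of the log2 difference from -0.52 to 0.34. Psmb6, of the caspase-like site, read 1753.2, 1746.6 and 1219 against 1525.4, 1508.7 and 1109.8 (interval from -0.63 to 0.27). Psmb7, of the trypsin-like site, read 4444.3, 3890.5 and 3994.5 against 3573.5, 4246.7 and 3190.8 (interval from -0.50 to 0.16). In these 3 genes of the active subunits the groups overlapped, and replicate 3 was the lowest deficient library. Psmb3 and Psmb2, both of structural subunits, had the smallest p of the class and opposite signs. Psmb3 stood at 1472 ± 287 and 1827 ± 198 (log2 fold change 0.32, SE 0.179), while its other probe set, at 760 ± 125 and 702 ± 53.2, gave -0.10. Psmb2 stood at 672 ± 92.3 and 544 ± 67.9 (log2 fold change -0.29, SE 0.184). The median of the class was 0.06 when wild type replicate 1 was left out, and 0.04 without deficient replicate 3.

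The ATPases of the base unfold the substrate. Of their 6 genes 0 were called, the log2 fold changes ran from -0.15 to 0.24 with a median of -0.07, and the groups overlapped in all 6. Without wild type replicate 2 that median was 0.01. Psmc4 varied most within the groups, with 624.6, 881.4 and 1205.8 in wild type and 635.7, 1217.5 and 1427.5 in deficient muscle. Psmc5 stood at 1210 ± 229 and 1114 ± 28.9. The brightest probe set of Psmc2 stood at 2102 ± 18.2 and 1910 ± 334 (log2 fold change -0.15, SE 0.165). Another of its probe sets read 1898.2, 1988.9 and 1738.5 against 1463.4, 1301.5 and 1343.1, with every deficient library below the wild type ones (log2 fold change -0.45, SE 0.151, limma adjusted p = 0.18 over 27026 probe sets). The other base subunits are scaffolds and a ubiquitin receptor. Psmd1, Psmd2 and Psmd4 had log2 fold changes of -0.07, 0.13 and 0.10, 0 were called, and the groups overlapped in all 3.

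The log2 fold changes of the lid genes ran from -0.48 to 0.54. The lid carries the enzyme that removes the ubiquitin chain. Of its 8 genes 0 were called, 5 had a positive and 3 a negative log2 fold change, and the median was 0.08. Psmd13, a structural lid subunit gene, read 375.5, 379.7 and 359 in wild type and 493.4, 594 and 559.2 in deficient muscle. All 3 deficient libraries were above all 3 wild type libraries, a log2 fold change of 0.54 (SE 0.168, limma adjusted p = 0.123). Psmd7, whose product pairs with the deubiquitinase, read 791, 1014.2 and 819.2 in wild type and 700, 571.3 and 588.1 in deficient muscle, a log2 fold change of -0.48 (SE 0.177, limma adjusted p = 0.18). Psmd6, a structural subunit gene, read 2520.2, 2761.7 and 2222.4 against 1885, 2065.3 and 1704.1, a log2 fold change of -0.40 (SE 0.153, limma adjusted p = 0.19). In both, all deficient libraries were below all wild type libraries. Psmd12 also did not overlap, at 1244 ± 90.8 and 1114 ± 6.57, with a smaller difference (log2 fold change -0.15, SE 0.149).

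Over the 42 genes the groups did not overlap in 7, or 16.7%, against 24.7% of all genes tested. Psma5 and Psmd13 were higher, 4.76% of the 42. Psmd6, Psmd7, Psmd12, Psme3 and Psme3ip1 were lower, 11.9% against 12.4% of all genes. These shares are near or below those of all genes.

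**Figure D3:**
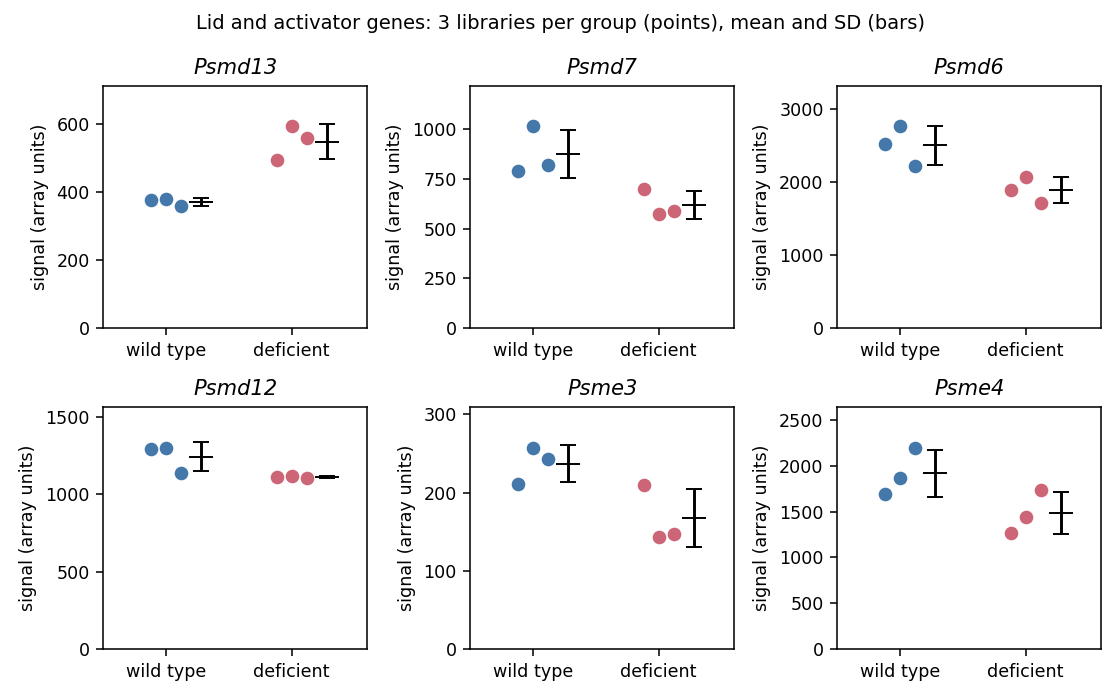
Signal (array units) of lid and activator genes in each library (points, 3 a group) with the mean and SD. Psmd13 is higher and Psmd7, Psmd6, Psmd12 and Psme3 are lower in all 3 deficient libraries, while the groups of Psme4 overlap.

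Psmd5, Psmd9 and Psmd10 encode chaperones that help to assemble the base. Their log2 fold changes were 0.08, 0.04 and -0.30, 0 were called, and the groups overlapped in all 3. Psmd10, the gene of gankyrin, read 191.5, 186.9 and 136.9 in wild type and 169.1, 167.2 and 84.9 in deficient muscle.

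The 3 activator genes tested all had a negative log2 fold change, with a median of -0.38, and 0 were called. Psme3, of the nuclear activator PA28 gamma, read 210.4, 257.5 and 242.5 in wild type and 209.6, 143.8 and 147.4 in deficient muscle, a log2 fold change of -0.48 (SE 0.204, limma adjusted p = 0.241). Deficient replicate 1 lay just below the lowest wild type library, a margin far smaller than the spread, and a second probe set, at 96.4 ± 1.7 and 83.1 ± 25.7, overlapped. Psme4, of the activator PA200, read 1690, 1866.2 and 2198 in wild type and 1271.4, 1446.5 and 1731.7 in deficient muscle, a log2 fold change of -0.37 (SE 0.175, limma adjusted p = 0.288), with 1 deficient library above 1 wild type library. Psme1, of the interferon-inducible PA28 cap, read 738, 667.1 and 567.6 against 665.4, 591.5 and 311.3, a log2 fold change of -0.38 (SE 0.272, limma adjusted p = 0.483). Deficient replicate 3 was its lowest library, and without it the log2 fold change was -0.06. The median shift of the class from the wild type mean was -0.16, -0.39 and -0.63 in deficient replicates 1, 2 and 3, and without replicate 1 the median log2 fold change was -0.59.

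Other probe sets of these genes differed in how far they followed the brightest one. In Psme4 another bright probe set, at 1764 ± 66.7 and 1455 ± 141, and a less bright one, at 941 ± 47.4 and 543 ± 81.8, had every deficient library below the wild type ones. The less bright one had a log2 fold change of -0.79 (SE 0.181, limma adjusted p = 0.0686 over all probe sets). A dim one, at 19.3 ± 15.4 and 29.3 ± 8.09, had a positive sign. In Psmd13 a second probe set, at 172 ± 7.82 and 265 ± 57, gave 0.56 without overlap, and a dim one, at 21.3 ± 10.3 and 9.5 ± 6.22, gave -0.54. The other probe set of Psmd6 varied widely, with 1344.4, 2375.7 and 2170.4 against 427.2, 1975.5 and 1279.3. It gave -0.88 (SE 0.459), the sign of the brightest one, with overlap. A dim probe set of Psmd7, at 12.8 ± 8.62 and 26.8 ± 12.2, had a positive sign. The mean of all probe sets gave -0.64 for Psmd6 and 0.05 for Psmd7. Of the 20 genes with more than 1 probe set over the filter, all probe sets had 1 sign in 5 and mixed signs in 15. Several of the mixed signs came from dim probe sets or from small differences, such as 0.03 and -0.02 in Psmb4. The same count was not made over all genes, so it is not read as a trait of these genes.

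**Figure D4:**
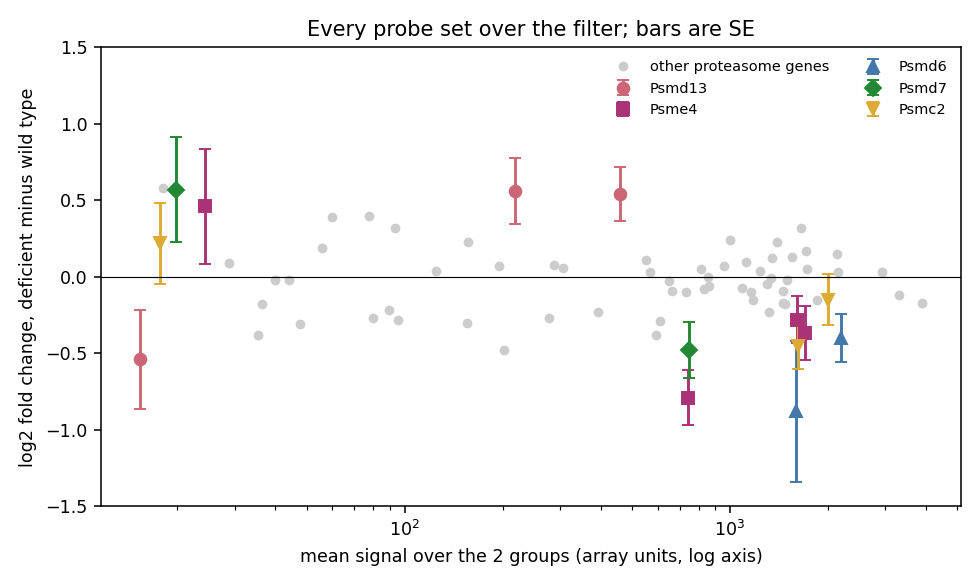
Log2 fold change of each of the 74 probe sets of the 42 tested genes against its mean signal (array units, log axis). The 3 bright probe sets of Psme4 lie at -0.28, -0.37 and -0.79 and those of Psmd13 at 0.54 and 0.56, while the dim ones of both have the opposite sign.

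The 3 immune subunit genes varied more between deficient than between wild type mice, and 0 were called. Psmb8 read 155.1, 138.4 and 114.4 in wild type and 274.3, 177.7 and 82.4 in deficient muscle, a log2 fold change of 0.23 (SE 0.347, limma adjusted p = 0.774). Psmb10 read 190.5, 193.2 and 169.4 against 279.1, 227.8 and 113.6, a log2 fold change of 0.07 (SE 0.288, limma adjusted p = 0.923). Psmb9 read 107.2, 97.6 and 109.8 against 120.3, 70.7 and 67.7, a log2 fold change of -0.28 (SE 0.229, limma adjusted p = 0.553). In Psmb8 and Psmb10 deficient replicates 1 and 2 were above, and replicate 3 below, every wild type library, and the groups overlapped in all 3 genes. The median SD on the log2 scale was 0.0956 among wild type and 0.621 among deficient libraries. It was 0.225 and 0.285 over all genes tested, and 0.195 and 0.179 over the constitutive beta subunit genes. The difference in spread was not tested. Without deficient replicate 1 the log2 fold changes were -0.13 for Psmb8 and -0.17 for Psmb10, and without replicate 3 they were 0.65 and 0.42.

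Markers of other cells also varied between these libraries. The summed signal of 10 macrophage markers was 10425, 7546 and 3803 in deficient replicates 1, 2 and 3 and 2744 to 3928 in wild type. All 10 had a positive log2 fold change, and 1 was called, Mpeg1. That of 6 genes of dendritic cells and MHC class II was 4164, 3970 and 1878 against 1483 to 2258. That of 3 neutrophil genes took another order, 1632, 4457 and 417 against 317 to 2126. The 5 tested markers of T, B and NK cells were dim, with sums of 154 to 171 against 215 to 278, and Cd3e and Cd4 read at most 15.6 in any library. The sum of 5 tested adipocyte genes was 4724, 5042 and 2065 against 4024 to 6935, lowest in deficient replicate 3. Of these 5 genes, 2 were called lower, the brown fat genes Ucp1, at 957 ± 566 and 33.4 ± 17.9 (limma adjusted p = 0.00443), and Cidea, at 792 ± 228 and 296 ± 39.5 (limma adjusted p = 0.0211). Of 6 fibroblast, 5 endothelial and 3 Schwann cell genes 0 were called, with median log2 fold changes of 0.18, -0.32 and 0.21. The part of these cells in the values of the immune subunits was not tested.

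**Figure D5:**
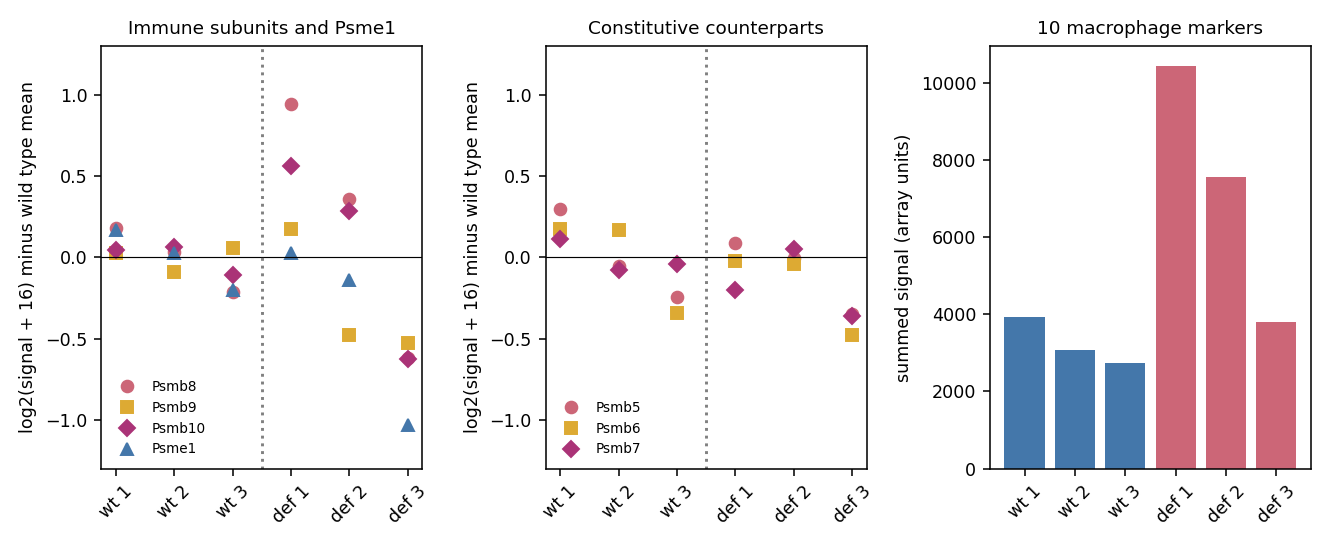
Log2(signal + 16) minus the wild type mean in each library for the immune subunit genes with Psme1 and for the constitutive genes they replace, and the summed signal (array units) of 10 macrophage markers. Psmb8, Psmb9 and Psmb10 are highest in deficient replicate 1 and lowest in deficient replicate 3, where the macrophage sums are 10425 and 3803. In deficient replicate 3 these genes lie below every wild type library, and the macrophage sum lies inside the wild type range of 2744 to 3928.

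Each immune subunit takes the place of 1 constitutive subunit, so the log2 difference between partners was taken within each library and compared between groups. With 3 libraries a group, the smallest p of the exact two-sided permutation test is 0.1. Psmb8 minus Psmb5, relative to the wild type mean, was -0.11, 0.08 and 0.03 in wild type and 0.86, 0.36 and -0.27 in deficient muscle, a mean change of 0.32 (exact permutation p = 0.5). For Psmb10 minus Psmb7 the mean change was 0.24 (exact permutation p = 0.6). For Psmb9 minus Psmb6 it was -0.10 (exact permutation p = 0.8). Adjusted over the 3 pairs, each exact p was 0.8, and no change was larger than the spread between deficient mice. Psmb8 minus Psmb5 was 0.05 without deficient replicate 1 and 0.61 without replicate 3, and Psmb10 minus Psmb7 was 0.50 without replicate 3. The sign turned without deficient replicate 1 for Psmb10 minus Psmb7 (-0.01). For Psmb9 minus Psmb6 it turned without wild type replicate 3 (0.10) or deficient replicate 2 (0.07). Psmb9 minus Psmb6 was -0.50 without both wild type libraries with hair keratins, which leaves wild type replicate 3 alone in its group.

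Psmb9 and Psmb8 lie in the MHC region of chromosome 17, where they alternate with the peptide transporter genes Tap1 and Tap2. The 250 bases before their starts are shown because immune subunit genes are known to respond to interferon, with those of the constitutive Psmb5 and of Psmd13, the gene with the smallest p, for comparison. They are RefSeq sequences of GRCm38.p6 on the gene's own strand. Capitals mark matches on either strand to the antioxidant response element core TGACNNNGC, the interferon gamma activated site TTCNNNGAA, the interferon-stimulated response element core (GAAA, any 2 bases, GAAA) or the CCAAT box CCAAT. The windows are chr14:54617996-54618245 on the minus strand for Psmb5, chr17:34197945-34198194 on the plus strand for Psmb8, chr17:34187331-34187580 on the minus strand for Psmb9 and chr7:140882144-140882393 on the plus strand for Psmd13.
Psmb5: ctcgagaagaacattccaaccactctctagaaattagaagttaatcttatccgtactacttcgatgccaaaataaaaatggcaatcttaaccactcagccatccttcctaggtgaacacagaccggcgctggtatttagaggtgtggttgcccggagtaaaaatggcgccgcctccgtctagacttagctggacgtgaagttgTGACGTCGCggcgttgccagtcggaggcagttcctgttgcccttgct
Psmb8: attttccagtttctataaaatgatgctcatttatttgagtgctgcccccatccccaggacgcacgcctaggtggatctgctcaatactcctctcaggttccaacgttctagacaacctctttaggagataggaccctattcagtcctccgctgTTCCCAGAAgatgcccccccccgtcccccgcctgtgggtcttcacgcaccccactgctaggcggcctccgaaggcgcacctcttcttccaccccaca
Psmb9: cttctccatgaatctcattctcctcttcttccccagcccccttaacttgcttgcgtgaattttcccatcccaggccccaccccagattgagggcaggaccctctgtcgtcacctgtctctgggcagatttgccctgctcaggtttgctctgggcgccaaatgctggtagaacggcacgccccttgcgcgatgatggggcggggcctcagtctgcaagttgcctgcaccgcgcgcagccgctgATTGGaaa
Psmd13: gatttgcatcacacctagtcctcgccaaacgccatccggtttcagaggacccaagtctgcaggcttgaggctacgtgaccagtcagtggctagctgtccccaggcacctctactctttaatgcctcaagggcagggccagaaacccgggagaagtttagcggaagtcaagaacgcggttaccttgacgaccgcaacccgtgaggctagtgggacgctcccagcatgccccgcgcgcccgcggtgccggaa

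Of the 37 proteasome genes whose promoter windows were searched, Psmb8 alone held TTCNNNGAA, 97 to 89 bases before its start, as did 7.02% of all 32851 windows. TGACNNNGC, in Psmb5 at 47 to 39 bases before its start, was also in Psmb6, Psmc6, Psmd9 and Psmd12, 13.5% of the genes and 10.2% of all windows. The interferon-stimulated response element core was in Psmb3, Psmd4 and Psmd9, 8.11% of the genes and 2.98% of all windows. The CCAAT box was in 16 genes, Psmb9 among them (as ATTGG on the strand shown), 43.2% against 33.8% of all windows. The windows of Psmb9 and Tap1 share 225 bases. The window of Psmd13 held none of the 4 motifs. The 37 genes had 40 windows, and a gene was counted if any of its windows matched. The shares of genes and of all windows are therefore not in the same unit. A match describes letters in a window and is not a bound site.

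Genes that work with the proteasome were described by lists, and 0 genes of any of these lists were called. Of 6 tested partners outside the rule the median log2 fold change was -0.15. Ube3c, a ubiquitin ligase of the particle, stood at 190 ± 8.79 and 153 ± 13.9 without overlap, and Usp14, a deubiquitinase of the particle, at 390 ± 73.9 and 326 ± 36.1. Over the 5 chaperones of core assembly the median was -0.10. Psmg2 read 376, 365.9 and 295.5 in wild type and 230.2, 264.8 and 231.8 in deficient muscle, lower in all deficient libraries, a log2 fold change of -0.48 (SE 0.183, limma adjusted p = 0.192), while Psmg4 stood at 118 ± 6.27 and 139 ± 40.6. Of 4 tested regulators, Nfe2l1, whose product raises proteasome gene expression when the proteasome is inhibited, read 524.9, 530.7 and 366.7 in wild type and 628.8, 868.3 and 825.1 in deficient muscle. It was higher in all deficient libraries, a log2 fold change of 0.69 (SE 0.211, limma adjusted p = 0.116). Ngly1, whose enzyme takes part in activating that factor, read 648.5, 670.4 and 646.4 against 568.9, 515.8 and 503.5, lower in all deficient libraries, a log2 fold change of -0.30 (SE 0.16, limma adjusted p = 0.343). Over 6 genes listed as shuttle factors, whose products bind tagged proteins, the median was 0.04. Sqstm1 stood at 1630 ± 186 and 1380 ± 435 and Ubqln4 at 259 ± 73.3 and 314 ± 94.4. Uba6 was the 1 gene tested of ubiquitin and its activation, at 84.9 ± 21.1 and 80.5 ± 20.2.

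Over 10 genes of MHC class I presentation, which uses the peptides the proteasome makes, the median log2 fold change was 0.19. Tap1, the neighbour of Psmb9, read 72.8, 42.2 and 17.1 in wild type and 99.2, 57.1 and 60.8 in deficient muscle. H2-K1, a class I gene with near-identical relatives that its probe set may also read, varied widely among wild type mice, with 2480.3, 911.7 and 128.3 against 2181.3, 1798.3 and 1638.9. Over 8 tested genes of the interferon response the median was 0.00. Ifit3 read 125, 56.2 and 149.8 against 255.7, 150.7 and 194.2, higher in all deficient libraries, a log2 fold change of 0.83 (SE 0.32, limma adjusted p = 0.197), and Ifit1 read 57.5, 35.9 and 45.9 against 125.3, 56.7 and 55.4, with overlap.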

How the data were processed

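RNA of 6 mice was read on 1 Affymetrix array each, with biotinylated cRNA per the labels' protocols. The deposited table gives each probe set's signal intensity on a linear scale, and the trimmed mean of each array is 100. No source used here names the summarising algorithm. Signals were taken as log2(signal + 16) with no further normalization, since array medians differed by 0.226 at most on that scale, under the limit of 0.5 set for centring. Probe sets with 1 gene symbol and a mean signal over the 40th percentile (15) were kept, 1 per gene by highest mean signal. The test was that of limma 3.58.1, run under R 4.3.3 (lmFit, eBayes with an intensity trend), with Benjamini-Hochberg adjustment over all 13104 genes, and the code was tested on simulated data. The number of arrays, 3 a group, limits the precision.

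The rule for named genes took any proteasome or pathway gene called (there was none), Psmb5 to Psmb10, Psme1 to Psme4, the 3 genes with the smallest p in each class and the 2 in each pathway list. Psmd12, the called marker genes and the single probe sets were named after their values were seen. The proteasome genes, the lists and the tests were chosen with earlier results of these data known. Motifs were searched in RefSeq promoter windows. Alternatives changed the filter, pseudocount, scaling, choice of probe set, variance prior, blocks and libraries.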

Additional observations from a re-analysis of the deposited data

How the results depend on the processing

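No proteasome gene was called under any of the 21 settings tried, with the smallest adjusted p (limma) between 0.0556, for Psmd13 with Y-linked transcripts as a block, and 0.647. The count of all genes called, 353, was 216 with no filter on low signal, 159 with no intensity trend, 1144 with the Y-linked block and 64 to 665 with 1 library left out. With the replicate number as a block it was 855. Deviations of same-numbered mice correlated at 0.15, 0.07 and 0.30, and those of mice with different numbers at -0.29 to 0.20. Wild type replicates 1 and 3 correlated best with the deficient mouse of their own number. Wild type replicate 2 correlated best with deficient replicate 1, at 0.20. These values do not settle whether the numbers pair the mice.

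Without both wild type libraries with hair keratins, wild type replicate 3 was the only library left in its group. The values of this setting therefore rest on that library. The median log2 fold change was then 0.11 for the ATPases and 0.16 for the constitutive beta subunits. The signs turned in Psmb5 (0.15), Psmb6 (0.16), Psmc4 (-0.22), Psmc5 (0.14) and Psmd9 (-0.05). With probe sets without a suffix first, the lid median was -0.06, and the signs turned in Psmb3 (-0.10), Psmc4 (-0.09) and Psmd13 (-0.54). With the mean of all probe sets they turned in Psma1 (0.08), Psmd7 (0.05) and Psmd9 (-0.07), and with median centring or quantile normalization in Psmd9 (-0.01 in both). With 1 library left out, the median ran from -0.04 to 0.14 for the lid, -0.59 to -0.39 for the activators, -0.19 to 0.06 for the constitutive beta subunits, -0.14 to 0.01 for the ATPases, -0.12 to 0.03 for the alpha ring, -0.12 to 0.10 for the chaperones, 0.01 to 0.16 for the other base subunits and -0.17 to 0.42 for the immune subunits. Single genes ran from -0.17 to 0.42 for Psmb10, -0.21 to 0.06 for Psmb5, -0.13 to 0.65 for Psmb8, -0.53 to 0 for Psmc3ip, -0.22 to 0.04 for Psmc5, -0.12 to 0.32 for Psmd5, -0.04 to 0.11 for Psmd9 and -0.59 to -0.06 for Psme1. The pairs ran from 0.05 to 0.61 for Psmb8 minus Psmb5, -0.24 to 0.10 for Psmb9 minus Psmb6 (-0.50 without both hair-keratin libraries) and from -0.01 to 0.50 for Psmb10 minus Psmb7. The causes were not tested. Of 560 values for 28 genes under 20 settings, 536 kept their direction and side of the threshold and 24 turned sign. Settings that changed only the filter, the variance prior or the blocks left the log2 fold changes of these genes as they were. In those settings the direction could not turn, so the tally overstates how stable the directions were. The filter on mean log2 values and the test of every probe set on its own were chosen after seeing the data. Signals near background limit the dim probe sets.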
